A study of Mus musculus with 6 samples.

Results

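Described here are the nuclear genes of the mitochondrial respiratory chain in a primary cell culture of mouse dorsal root ganglia. The members were the protein-coding genes off the mitochondrial chromosome whose symbols begin with Nduf, Uqcr, Cox4 to Cox8 or Atp5, or are Sdha, Sdhb, Sdhc, Sdhd or Cyc1. This rule took 97 of the 45703 genes of the deposited table, of which 21843 were protein-coding. The rule itself used no measured value, but it was set with earlier results of these data known. By complex, 47 members belonged to complex I, 4 to complex II, 9 to complex III, 20 to complex IV and 17 to complex V. They lay on 19 chromosomes, with 3 of them (Ndufb11, Ndufa1 and Cox7b) on the X chromosome.

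RNA sequencing profiled 6 cultures, all of 1 group: ganglia of wild type C57BL/6 mice (adult, 4 to 6 weeks of age) kept for 7 days in vitro. Ganglia were dissociated with the collagenase blends Liberase TH and Liberase TM, and cells were grown on poly-L-lysine in DMEM/F12 with 10% fetal calf serum plus EGF and FGF, each at 10 ng/ml. No sorting step is given, so each library is a mixture of cell types, pooled from 2 dishes, and the labels do not say whether the cultures came from separate animals. The p-values below therefore measure only the spread between these 6 samples, which may be technical, and no condition was compared.

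The respiratory chain sits in the inner mitochondrial membrane. Complex I takes electrons from NADH and complex II from succinate, both pass them to coenzyme Q, complex III hands them on to cytochrome c, and complex IV reduces oxygen. Complexes I, III and IV pump protons, and complex V, the ATP synthase, uses the proton gradient to make ATP. Complex II is wholly nuclear-encoded, whereas the other complexes combine nuclear subunits with a few subunits of the mitochondrial genome, which were not analysed here. Sensory neurons depend on this machinery along long axons, and their glia, fibroblasts and mural cells carry it too.

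The libraries held between 20070639 and 22968642 estimated counts, and scaling factors by the trimmed mean of M-values (TMM) lay between 0.977 and 1.02. All 6 glial lineage markers and all 6 neuron markers were detected in every culture, detected meaning at least 1 CPM, the usual count scaled to library size. The cultures differed in other markers: the summed level of 7 fibroblast markers ran from 3339 CPM in culture 1 to 13977 CPM in culture 5, a ratio of 4.19. For 8 mural markers (pericytes and vascular smooth muscle) the range was 213 to 1881 CPM between the same cultures, for 6 macrophage markers 13.5 to 118 CPM and for 5 endothelial markers 6.44 to 102 CPM. The 6 glial markers were lowest in culture 5, at 4162 CPM, and highest in culture 2, at 6033 CPM. In such bulk libraries fewer cells of a type and less RNA per cell cannot be told apart.

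Of the 97 members, 90 were detected in all 6 cultures, against 55.8% of the protein-coding genes. The 7 that were not detected in every culture all belonged to complex IV: Cox4i2, Cox6a2, Cox7a1, Cox7b2, Cox8b, Cox8c and Ndufa4l2. The same 90 members passed the filter on low counts and entered the tests. Per kilobase of exon, the detected members had a median level of 46.0 CPM, against 8.11 CPM for the 13911 genes detected in all cultures. Of the 90, 82 lay above that median and 44 (48.9%) in the top 10% of detected genes. These ranks depend on the division by length, since the members are short. Their median exon length was 908 bases, against 3468 for tested genes. Without that division, 36 of the 90 tested members and 4692 of the 14998 tested genes had a mean of at least 50 CPM.

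**Figure D1:**
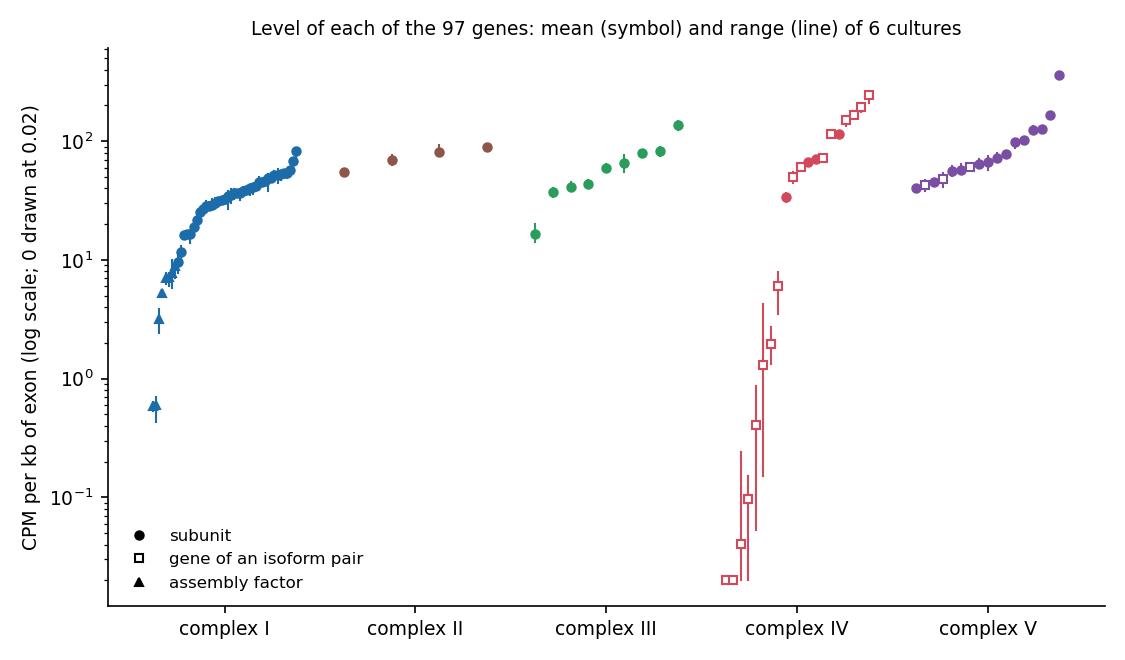
Level of each of the 97 members, in CPM per kilobase of exon on a log axis, grouped by complex and ordered by level. Symbols are means of 6 cultures, lines the range of the cultures, squares genes of an isoform pair and triangles complex I assembly factors. Atp5b is the highest member at 359 CPM per kilobase, and the low tail in complex IV holds the 7 genes not detected in every culture.

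Together the members took 0.557% ± 0.00674 of all counts (SD, n = 6). The share was 0.555%, 0.554%, 0.556%, 0.570%, 0.551% and 0.555% in cultures 1 to 6. Culture 4 was the highest and the other 5 lay within 0.551% to 0.556%. In summed CPM the highest culture exceeded the lowest by a factor of 1.03, beside the factor of 4.19 for the fibroblast markers and 8.85 for the mural markers of the same libraries.

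Complex V took the largest part of these counts and complex II the smallest. The summed level was 2072 ± 44.2 CPM for complex V (SD, n = 6), 1532 ± 26.3 for complex I, 905 ± 28.6 for complex IV, 556 ± 9.90 for complex III and 504.1 ± 10.2 for complex II. The ratio of highest to lowest culture was 1.05, 1.04, 1.10, 1.05 and 1.06 in the same order. Complex IV varied most and was lowest in culture 5, at 853.5 CPM, with the other cultures between 899.6 and 936 CPM. Complex V did not follow: in culture 5 its sum was 2125 CPM, the second highest after 2130 CPM in culture 4. These sums pool between 4 and 47 genes each and the marker lists between 5 and 8, and a sum over more genes averages over more of their separate variation.

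**Figure D2:**
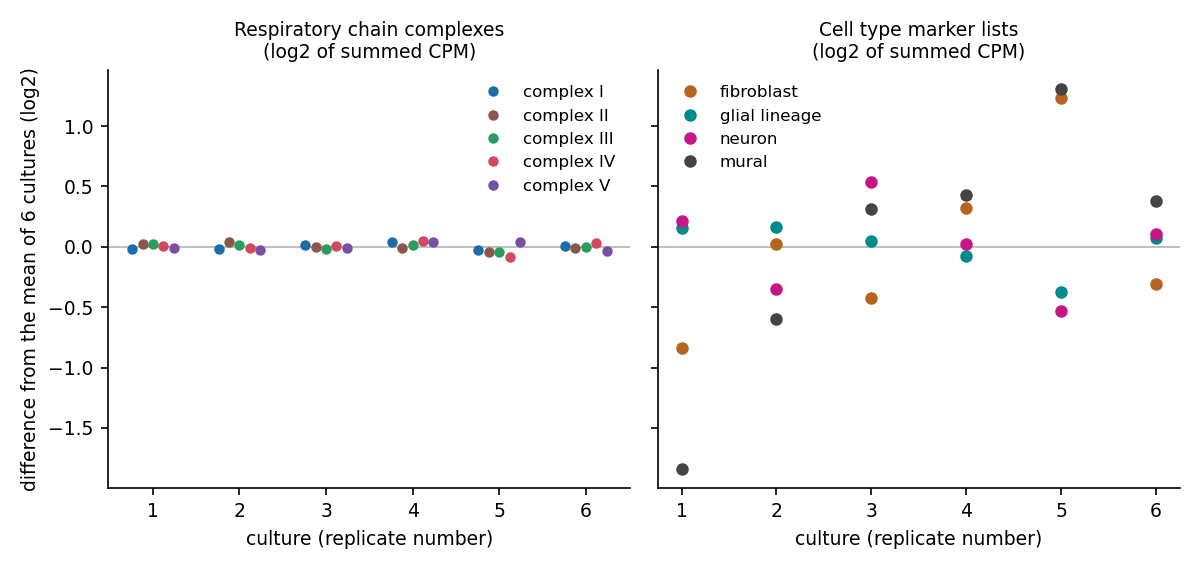
Summed CPM of each complex (left) and of 4 cell type marker lists (right) in each culture, as the difference of its log2 from the mean over the 6 cultures. Points are single cultures, and both panels share 1 axis. The complexes stay near 0, whereas fibroblast and mural markers are lowest in culture 1 and highest in culture 5.

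The 7 core complex I genes carry the flavin and iron-sulfur centres and the quinone site. Among those described here, Ndufv2 stood at 41.9 ± 1.55 CPM per kilobase (SD, n = 6), Ndufv1, which holds the flavin, at 38.0 ± 1.56, and Ndufs7 at 21.7 ± 1.87. Ndufv2 stood at 73.3 CPM in culture 4 and between 66.4 and 68.5 CPM in the other 5. Ndufs1, the largest iron-sulfur subunit, stood at 99.7 CPM in culture 1 and between 91.9 and 94.3 CPM in the other 5.

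The products of the 32 supernumerary complex I genes surround the core and stabilise it. By deposited length these genes ranged from Ndufb1 at 81.9 ± 5.43 CPM per kilobase to Ndufab1 at 9.55 ± 0.999, a ratio of 8.57. Ndufab1 encodes the mitochondrial acyl carrier protein, which also serves fatty acid synthesis and iron-sulfur cluster formation. Ndufab1 stood at 20.4, 17.0, 21.5, 23.5, 22.0 and 21.1 CPM in cultures 1 to 6. Culture 2 was the lowest and the other 5 lay between 20.4 and 23.5. Next above it was Ndufa11 at 11.6 ± 1.33 CPM per kilobase, or 56.8 with its principal transcript, since the deposited exon length is 4.88 times that length. With principal transcripts, of which Ndufb1 has none, the highest of the class was Ndufb8, at 91.2 CPM per kilobase. The lowest was then Ndufb2, at 3.55 CPM per kilobase, a ratio of 25.7, followed by Ndufab1 at 6.01. Both low places depend on long principal transcripts. That of Ndufb2 is annotated at 4371 bases against a deposited exon length of 936, and that of Ndufab1 at 3479 against 2189.

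The 8 complex I assembly factors, which help build the complex and leave it afterwards, were low genes of complex I. By deposited length they ranged from 0.590 ± 0.0396 CPM per kilobase for Ndufaf5 to 8.82 ± 0.955 for Ndufaf2, and all 8 lay below the lowest subunit, Ndufab1. That separation depends on the length used: with principal transcripts 5 of the 8 lay above Ndufab1, up to Ndufaf2 at 11.2 CPM per kilobase. For Ndufaf5 the deposited exon length of 16711 bases was 14.3 times its principal transcript, so its level per kilobase depends on that length. With the principal transcript length it came to 8.46 CPM per kilobase. Its count level was 9.86 ± 0.662 CPM.

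By deposited length complex II had the narrowest range of the 5 complexes. Its 4 genes ran from Sdha, the flavoprotein that oxidises succinate, at 89.2 ± 1.04 CPM per kilobase to Sdhd, a membrane anchor, at 55.5 ± 1.65, a ratio of 1.61. With principal transcripts the ratio was 3.09, with Sdhc lowest at 28.4 CPM per kilobase, and the main subunits of complex IV then had the narrowest range, 46.7 to 95.0. Sdha had the smallest spread of the members with at least 10 CPM: 251, 258, 257, 258, 251 and 256 CPM in cultures 1 to 6, a coefficient of variation (CV) of 1.17%. Sdhb, the iron-sulfur subunit, stood at 100.2 CPM in culture 1 and 82.4 to 88.7 CPM in the other 5. Sdhc, the other anchor, was highest in culture 2, at 99.6 CPM, and lowest in culture 5, at 81.7 CPM.

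In complex III the hinge protein gene Uqcrh was highest at 136 ± 7.92 CPM per kilobase and Uqcrq, a small membrane subunit, lowest at 16.4 ± 2.15. The core-protein genes Uqcrc1 and Uqcrc2 stood at 79.0 ± 3.65 and 60.0 ± 2.25. The genes for the redox subunits were lower, Cyc1 (cytochrome c1) at 41.3 ± 2.29 and Uqcrfs1 (the Rieske iron-sulfur protein) at 37.6 ± 2.58. Uqcrq was among the most variable members, at 23.9, 26.4, 22.3, 25.2, 21.7 and 30.7 CPM in cultures 1 to 6. Culture 6 was highest for Uqcrq, and also for Uqcr11, another small subunit, which ranged from 24.1 CPM in culture 5 to 33.1 CPM in culture 6.

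In complex IV, Cox4i1, the regulatory subunit, reached 244 ± 18.4 CPM per kilobase, below Atp5b alone among the members. Cox6b1 stood at 193 ± 11.2, Ndufa4 at 168 ± 6.85 and Cox6a1 at 151 ± 8.69. Ndufa4 is named for complex I but its protein is a complex IV subunit. Among the 4 subunits with a single gene, Cox6c was highest at 114 ± 5.49 and Cox5a lowest by deposited length, at 34.1 ± 1.90 (79.3 with its principal transcript), with Cox5b at 70.9 ± 3.94 and Cox7c at 66.4 ± 3.09. Cox4i1 stood at 195.5, 194.9, 180.9, 191.1, 159.8 and 195.3 CPM in cultures 1 to 6. Culture 5 was the lowest, apart from the other 5 by more than their own range.

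In complex V the F1 genes differed in level. Atp5b, the beta subunit that holds the catalytic sites, stood at 359 ± 10.2 CPM per kilobase and Atp5a1, the alpha subunit, at 167 ± 5.29. Their proteins occur in equal number in the enzyme, whereas the transcript ratio of Atp5a1 to Atp5b was 0.466 ± 0.00684 (SD, n = 6). The single-copy stalk genes were lower, Atp5c1 (gamma) at 77.5 ± 1.92 and Atp5d (delta) at 40.0 ± 1.20, and Atp5b exceeded Atp5c1 by 4.63 ± 0.202 times by deposited length and by 2.94 times with principal transcripts. In counts, Atp5b stood at 674, 661, 669.8, 684, 704 and 648 CPM in cultures 1 to 6 and Atp5a1 at 398, 403, 401, 410.4, 431 and 396. Culture 5 was highest and culture 6 lowest for both. These 2 genes together took 19.4% ± 0.612 of the counts of all 97 members.

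The remaining F1 gene, Atp5e (epsilon), stood at 97.7 ± 6.86 CPM per kilobase. By deposited length the 9 membrane and stalk genes ranged from Atp5l (subunit g) at 45.7 ± 1.80 to Atp5j2 (subunit f) at 128 ± 3.48. With principal transcripts Atp5l was again the lowest, at 43.1, whereas Atp5j2 came to 57.3 and Atp5h (subunit d) was the highest, at 129.7. The Atp5l row held only 51.7% of the counts of Atp5l and its near-identical pseudogene rows. Its place as the lowest is therefore uncertain. Atp5o, the oligomycin sensitivity conferring protein that links F1 to the membrane part, stood at 124 ± 5.67 and Atp5pb, the peripheral stalk subunit b, at 103 ± 3.86.

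As a level for each complex, log2(CPM per kilobase + 0.1) was averaged over its subunits without assembly factors or isoform pairs. This level was 6.44 ± 0.033 for complex V (SD, n = 6), 6.18 ± 0.040 for II, 6.03 ± 0.045 for IV, 5.76 ± 0.041 for III and 5.09 ± 0.033 for I. Each step of that order was present in 6 of 6 cultures, with differences of 0.25 ± 0.061 from V to II, 0.15 ± 0.075 from II to IV, 0.28 ± 0.055 from IV to III and 0.66 ± 0.034 from III to I. Complex I came last under each choice tried. With the length of the principal transcript, complex IV (6.05) came before complex II (5.85), since Sdhc then has a length of 3171 bases. With whole-count subunits only, complex II (6.31) came before complex V (6.19). With the widely expressed isoform genes counted in, complex IV (6.57) came before complex V (6.30).

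The promoters of the members could be searched for letters that match well-known factor motifs, since nuclear respiratory factor 1 (NRF1), ETS factors of the GABP type (also called NRF2) and YY1 are textbook regulators of these genes. RefSeq promoters of GRCm38.p6, 250 bases before to 50 after the gene start, were matched for 78 of the 97 members. Both strands were searched for GCATGCGC (NRF1), CCGGAAG (ETS), AAGATGGCG (YY1) and the TATA box core TATAAA. GCATGCGC was present in 12 of 78 member promoters (15.4%), against 5.86% of the 10730 promoters of tested genes and 3.05% of all 27025. AAGATGGCG was present in 8 members (10.3%), against 3.44% and 1.64%. The ETS letters were present in 19 (24.4%), against 19.4% and 9.93%, and the TATA box core in 8 (10.3%), against 8.62% and 15.7%.

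The GCATGCGC members came from every complex and from both ends of the range of levels: Ndufa6, Ndufa8, Ndufa11, Ndufaf4 and Ndufaf5, Sdhb, Uqcrc1 and Uqcr11, Cox6a1, and Atp5g2, Atp5k and Atp5l. By deposited length their levels ran from 0.590 CPM per kilobase (Ndufaf5) to 151 (Cox6a1). With principal transcripts Ndufaf5 came to 8.46, and Ndufaf4 was the lowest of them at 5.25. The AAGATGGCG members were Ndufs4, Ndufs6, Ndufs7, Ndufa9, Ndufc1, Ndufaf8, Atp5j and Atp5j2. Promoters of 4 complexes are shown to let the motif be seen in its setting, with each motif in capitals: the 250 bases upstream of Ndufa8 (chr2:36049339-36049588, minus strand), Sdhb (chr4:140961021-140961270, plus strand), Cox6a1 (chr5:115348959-115349208, minus strand) and Atp5g2 (chr15:102671048-102671297, minus strand), 5′ to 3′.
Ndufa8: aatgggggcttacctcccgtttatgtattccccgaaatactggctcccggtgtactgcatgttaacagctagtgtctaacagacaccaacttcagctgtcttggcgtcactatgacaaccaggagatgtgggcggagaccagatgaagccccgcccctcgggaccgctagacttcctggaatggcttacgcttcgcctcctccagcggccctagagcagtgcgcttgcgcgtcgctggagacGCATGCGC
Sdhb: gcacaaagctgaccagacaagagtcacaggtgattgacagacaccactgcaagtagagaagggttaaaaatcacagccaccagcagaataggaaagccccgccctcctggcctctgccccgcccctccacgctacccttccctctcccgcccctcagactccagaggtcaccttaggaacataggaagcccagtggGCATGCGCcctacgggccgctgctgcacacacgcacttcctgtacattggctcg
Cox6a1: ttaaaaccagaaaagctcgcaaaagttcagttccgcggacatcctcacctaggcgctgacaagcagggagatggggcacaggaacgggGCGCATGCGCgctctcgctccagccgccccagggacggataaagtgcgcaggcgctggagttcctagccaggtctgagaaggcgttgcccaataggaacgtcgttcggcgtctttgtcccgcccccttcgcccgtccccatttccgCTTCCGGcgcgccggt
Atp5g2: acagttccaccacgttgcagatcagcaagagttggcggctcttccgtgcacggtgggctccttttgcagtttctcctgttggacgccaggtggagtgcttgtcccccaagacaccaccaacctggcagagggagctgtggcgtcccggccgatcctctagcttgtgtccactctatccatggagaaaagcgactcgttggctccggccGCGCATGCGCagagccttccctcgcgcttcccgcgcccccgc
The motif starts 8 bases before the gene start in Ndufa8 and 54 bases before it in Sdhb. In Cox6a1 and Atp5g2 the capitals hold the motif on both strands, overlapping, and Cox6a1 has the ETS letters on the other strand 16 bases before the start. A match of letters is a description and not a measured binding site.

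The counts of a few members are shared with near-identical copies. Counts were fractional in at least 1 library for 61 of the 90 tested members (67.8%), against 51.8% of tested genes, and in all 6 libraries for 11 members. The coding sequence of Ndufb4, a supernumerary complex I subunit on chromosome 16, and the transcript of Ndufb4c on chromosome 15 were identical over 390 of 390 bases. Their first 90 coding bases are shown, with no difference to capitalise.
Ndufb4: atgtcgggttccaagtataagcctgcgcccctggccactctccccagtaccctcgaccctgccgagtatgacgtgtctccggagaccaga
Ndufb4c: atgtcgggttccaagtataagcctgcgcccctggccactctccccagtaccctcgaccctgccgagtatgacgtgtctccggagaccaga
The table lists Ndufb4, Ndufb4b and Ndufb4c as protein-coding, and GENCODE M21 lists Ndufb4c as a processed pseudogene. Ndufb4 took 45.2% ± 1.63 of the counts of the trio (SD, n = 6), Ndufb4b 27.3% ± 0.796 and Ndufb4c 27.6% ± 0.849. In counts, Ndufb4b and Ndufb4c were at most 4 apart in any culture, for instance 185.58 each in culture 1. Levels of single genes of this trio are therefore uncertain, and their sum is the firmer value.

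Atp5l, subunit g of the ATP synthase, shares its sequence with 3 pseudogene rows. The first 90 coding bases of Atp5l (chromosome 9), Atp5l-ps1 (chromosome 7) and Atp5l2-ps (chromosome 11) follow, with bases that differ from Atp5l in capitals.
Atp5l: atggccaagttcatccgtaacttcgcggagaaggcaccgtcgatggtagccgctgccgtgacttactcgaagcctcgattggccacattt
Atp5l-ps1: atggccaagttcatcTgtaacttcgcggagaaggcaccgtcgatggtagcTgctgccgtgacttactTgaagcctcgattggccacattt
Atp5l2-ps: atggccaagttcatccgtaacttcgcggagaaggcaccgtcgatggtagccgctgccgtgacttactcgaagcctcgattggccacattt
Over 312 bases, Atp5l-ps1 matched Atp5l at 307 and Atp5l2-ps at 310. Atp5l took 51.7% ± 0.457 of the counts of the 4 rows, Atp5l2-ps 25.2% ± 0.286, Atp5l-ps1 16.7% ± 0.523 and Atp5l-ps2 6.47% ± 0.424. The shares were nearly the same in the 6 cultures. Over all members, 14 pseudogene rows named after them held 1.29% ± 0.0357 of the member counts.

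**Figure D3:**
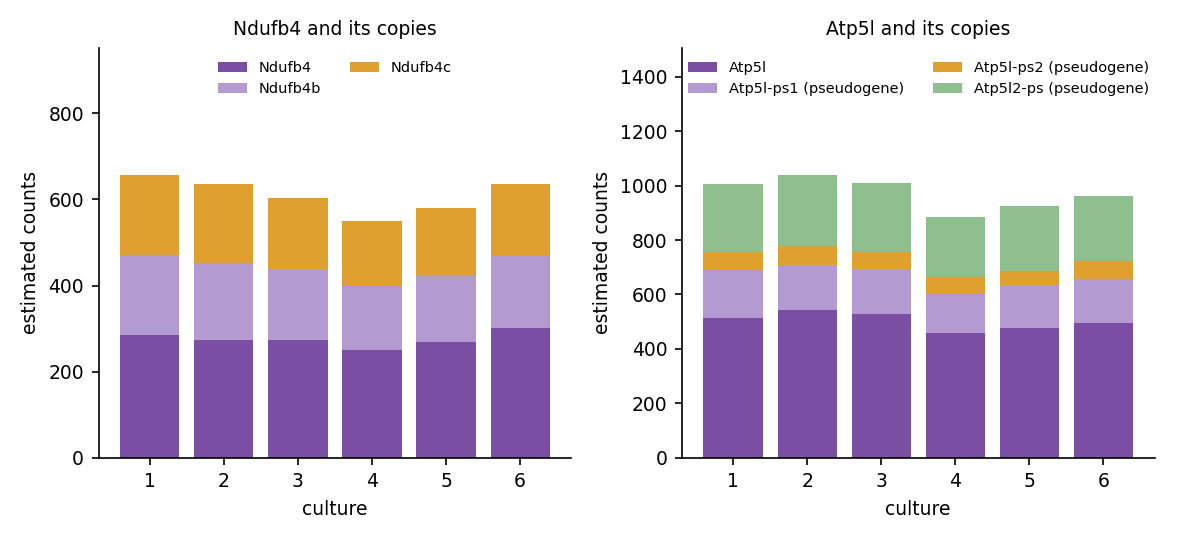
Estimated counts of Ndufb4 and its copies (left) and of Atp5l and its pseudogene rows (right) in each culture, stacked, with no scaling for library size. Ndufb4 holds 45.2% and Atp5l 51.7% of their family's counts on average, and the proportions hardly differ between cultures.

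A contrasting case is the c-ring of the ATP synthase, for which Atp5g1, Atp5g2 and Atp5g3 encode the same mature protein from different genes. The first 90 of the last 228 coding bases, which encode the mature protein, are shown with bases that differ from Atp5g3 in capitals.
Atp5g1: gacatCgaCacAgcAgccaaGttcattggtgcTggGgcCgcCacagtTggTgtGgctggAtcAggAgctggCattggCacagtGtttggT
Atp5g2: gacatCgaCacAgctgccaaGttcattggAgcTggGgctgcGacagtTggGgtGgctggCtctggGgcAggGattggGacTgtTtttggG
Atp5g3: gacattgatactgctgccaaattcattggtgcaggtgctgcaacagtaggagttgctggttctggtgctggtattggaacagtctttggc
Over the 228 bases, Atp5g1 and Atp5g2 were 85.1% identical, Atp5g1 and Atp5g3 79.8%, and Atp5g2 and Atp5g3 78.5%. Of the differences, 32 of 34, 41 of 46 and 44 of 49 fell on the third codon position. The longest identical runs were 21, 11 and 8 bases, so in this stretch the 3 genes differ within short distances.

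All 3 c-subunit genes were expressed in every culture. In counts, Atp5g3 stood at 104 ± 3.77 CPM (SD, n = 6), Atp5g1 at 42.6 ± 2.93 and Atp5g2 at 31.0 ± 2.93. Per kilobase of the deposited exon length, Atp5g3 held 40.2% ± 1.09 of their summed level, Atp5g2 31.6% ± 1.62 and Atp5g1 28.2% ± 1.48. Atp5g3 was the highest by counts, by deposited length and by principal transcript length. The order of Atp5g1 and Atp5g2 differed between these scales, and the principal transcript of Atp5g1 is annotated at 4660 bases against an exon length of 998 in the table. By deposited length the c-subunit sum was 0.423 ± 0.0195 times the Atp5b level. With principal transcripts Atp5g3 stood at 143 CPM per kilobase, Atp5g2 at 42.4, Atp5g1 at 9.15 and Atp5b at 352. Both the shares and the ratio to Atp5b therefore depend on the length used.

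Several subunits of complex IV have a widely expressed gene and a tissue-restricted counterpart. In each such pair the widely expressed gene was the higher in 6 of 6 cultures. Cox6a2, Cox7a1 and Cox8b, known from heart and skeletal muscle, were among the lowest members. Cox8b had 0 counts in all libraries, and against the level that 3 counts per library would give it was at least 273-fold lower per kilobase than Cox8a. Cox6a2 had at most 3 counts in any library and was at least 623-fold lower than Cox6a1. Cox7a1 was measurable, at 1.00, 0.774, 0.485, 0.772, 0.669 and 0.598 CPM in cultures 1 to 6, where Cox7a2 had 65.2 to 80.7 CPM, and the log2 ratio of the pair per kilobase was -4.63 ± 0.41 (SD, n = 6). It was -5.87 with principal transcripts and -6.51 with no length scaling. Of 8 muscle markers, 6 had at most 3 counts in every library and 2 of those had 0 throughout.

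Of the isoform genes known from testis, Cox8c had 0 counts in all libraries (at least 359-fold lower than Cox8a) and Cox7b2 had 3 counts in culture 1 and 0 elsewhere (at least 222-fold lower than Cox7b). These bounds cover counting error only. Cox6b2 was detected in every culture, at 2.18, 3.19, 4.06, 4.88, 3.06 and 4.83 CPM. Its log2 ratio to Cox6b1 per kilobase was -5.04 ± 0.42 (SD, n = 6), and its CV of 28.7%, after TMM scaling, was the largest of the 90 tested members.

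Cox4i2 and Ndufa4l2 are the hypoxia-induced partners of Cox4i1 and Ndufa4 and are known from pericytes. Ndufa4l2 stood at 0.174, 0.501, 1.25, 1.05, 4.87 and 1.24 CPM in cultures 1 to 6, while Ndufa4 stayed between 77.1 and 87.0 CPM. Culture 5 was highest and culture 1 lowest, a gap of 4 against 102 counts. Cox4i2 was lower, with 1, 2, 8, 7, 15 and 9 counts. It too was lowest in culture 1 and highest in culture 5, where it reached 0.717 CPM. The 8 mural markers summed to 213, 503, 948, 1026, 1881 and 992 CPM in the same cultures. Of these, Rgs5 ran from 8.49 CPM in culture 1 to 124 CPM in culture 5. Kcnj8, with at most 45 counts, ran from 0 to 2.15 CPM between the same cultures. Myh11 differed, being lowest in culture 2 at 4.55 CPM and highest in culture 6 at 54.9 CPM. Summed fibroblast, macrophage and endothelial markers were also highest in culture 5. Single markers differed: Lum and C1qa were highest in culture 4, and Cx3cr1 and Aif1 in culture 3. The part of any of these cell types in the levels of Ndufa4l2 and Cox4i2 was not tested.

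**Figure D4:**
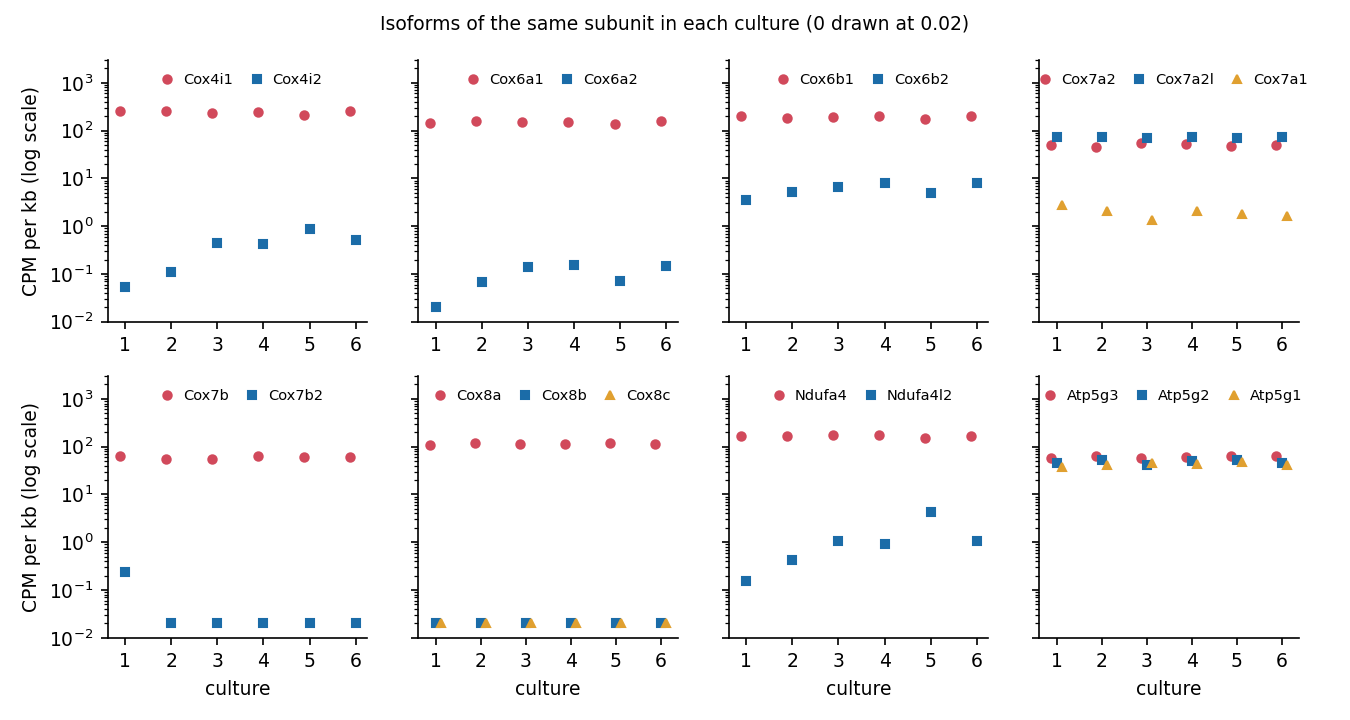
Level of isoform genes of the same subunit in each culture, in CPM per kilobase on a log axis, with 0 drawn at 0.02. Points are single cultures. Cox4i2 and Ndufa4l2 are lowest in culture 1 and highest in culture 5, whereas Cox4i1 and Ndufa4 vary little. The 3 Atp5g genes lie close together at the deposited exon length used here.

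Cox7a2l, a relative of Cox7a2 that joins complexes III and IV into supercomplexes, was among the steadiest members. It stood at 84.9, 82.9, 79.9, 84.5, 81.3 and 82.6 CPM in cultures 1 to 6, a CV of 2.32%. The C57BL/6 strain is known to carry a shortened form of this protein, which counts per gene do not show. Per kilobase of deposited exon length it stood 0.53 ± 0.12 above Cox7a2 on the log2 scale. With principal transcript lengths the difference was -0.52, so the order of the pair depends on the length used.

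For each gene, a chi-square test asked whether its 6 counts departed from proportion to the scaled library sizes, with Benjamini-Hochberg adjustment over all 14998 genes tested. It exceeded counting noise for 52 of the 90 members (57.8%), against 76.3% of the tested genes. The count was 20 of 47 in complex I, 2 of 4 in complex II, 8 of 9 in complex III, 9 of 13 in complex IV and 13 of 17 in complex V. Because more counts make small differences easier to detect, members with a mean of at least 50 CPM were also counted: 27 of 36 (75.0%) were called, against 94.7% of the 4692 genes at that level. Of the 52 calls, 28 were also made without each culture in turn. Leaving out genes with fractional counts left 29 members in the test, of which 19 were called (65.5%), against 80.6% of the 7224 genes with whole counts.

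The median CV, after TMM scaling, was 5.90% over the 90 members and 12.1% over all tested genes. Among genes of at least 50 CPM it was 4.50% for the members and 8.65% for all. Of the 90, 8 had a CV above the all-gene median. In the class of 30 to 100 CPM, which holds 45 members, 41 lay below the median CV of the 4167 genes of that class.

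**Figure D5:**
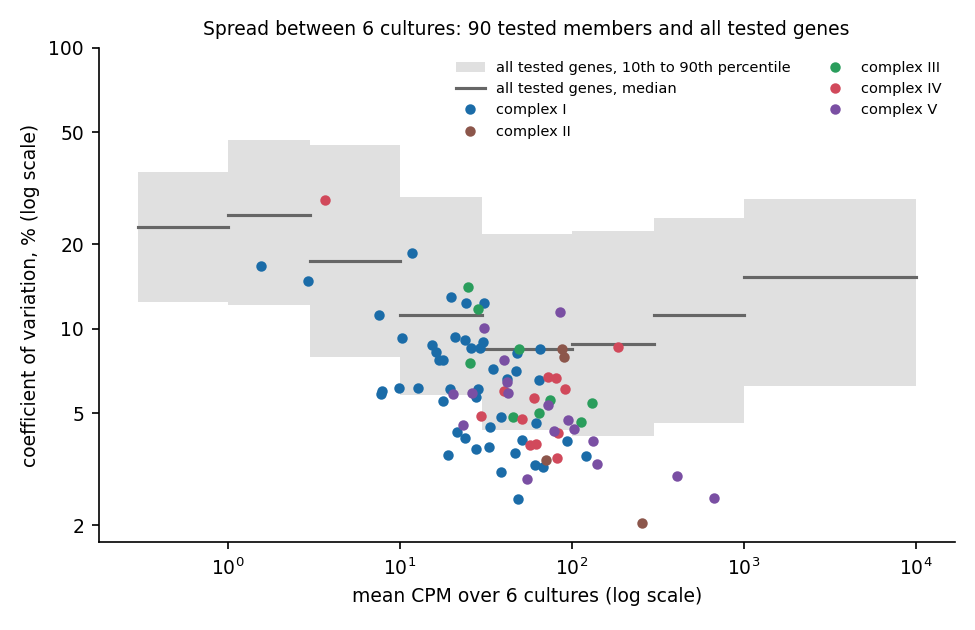
Coefficient of variation over 6 cultures (percent, TMM-scaled CPM) against mean CPM, both on log axes. Points are the 90 tested members, grey boxes the 10th to 90th percentile and bars the median of all tested genes in each abundance class. Most members lie below the bar of their class, and Sdha is the lowest at 2.03%.

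The steadiest members of at least 10 CPM, by CV before TMM scaling, were Sdha (1.17%), Cox7a2l (2.32%), Atp5c1 (2.48%), Atp5j2 (2.72%) and Ndufb11 (2.85%). The most variable were Ndufaf1 (19.6%), Uqcrq (13.1%), Ndufs6 (12.3%), Atp5h (12.2%), Ndufa1 (11.7%), Ndufa11 (11.5%), Uqcr11 (10.9%), Ndufab1 (10.5%), Ndufaf3 (9.70%) and Atp5g2 (9.43%). Ndufaf1, an early complex I assembly factor, stood at 13.5, 10.2, 15.0, 12.4, 10.9 and 8.70 CPM in cultures 1 to 6. Atp5h, the peripheral stalk subunit d, stood at 96.6, 75.3, 94.0, 93.5, 80.4 and 73.2 CPM, with fractional counts in all 6 libraries. In both genes cultures 1, 3 and 4 lay above cultures 2, 5 and 6 without overlap. The same held for Ndufa10, a supernumerary subunit, at 67.0, 71.1 and 68.2 CPM against 62.3, 58.7 and 61.7 CPM. This grouping was noticed in the values, and the labels give no batch that would define it. The share of members, or of all tested genes, that split in this way is not given. The grouping is therefore no result about the members.

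Members were also set against genes of similar abundance. edgeR's quasi-likelihood fit called 0 members and 0 of all 14998 genes (0.0%) as varying beyond the abundance trend. At an unadjusted p under 0.05 it called 0 members and 809 genes (5.39%). As it called no gene of the table, with 2.49 prior degrees of freedom, the count of 0 is no result about the members. As a description, the ratio of a gene's quasi-dispersion to the trend had a median of 0.425 over the members and 1.12 over all genes. It was above 1 for 15 members (16.7%), against 54.0% of genes.

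The fibroblast marker score, the mean log2(CPM + 0.5) over 7 markers, ran from 5.73 in culture 1 to 8.75 in culture 5, and each gene was tested for a slope on it with edgeR's quasi-likelihood test. This asked whether members moved with the makeup of the culture. No member had a slope that passed: 0 of 90 were higher, against 5.05% of tested genes, and 0 were lower, against 1.2%. At an unadjusted p under 0.05 there were 2 members, against 23.5% of genes, and DESeq2 called 0 members in either direction. The background itself rests on culture 5, since without it 84 genes were called higher and 3 lower, in place of 758 and 180. Slopes of the members lay between -0.17 and 0.14 log2 units per unit of score, and 0 of 90 exceeded 0.2 in size, against 19.3% of genes.

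The members nearest to the threshold were Ndufs6 and Ndufaf7. Ndufs6, an accessory subunit with a zinc site, stood at 20.9, 21.4, 21.1, 18.7, 15.2 and 21.2 CPM in cultures 1 to 6. Culture 5 was the lowest and culture 4 the next. Its slope was -0.17 ± 0.055 (SE), with an adjusted p of 0.130 by edgeR, and -0.08 without culture 5. Ndufaf7, a methyltransferase and assembly factor, stood at 14.6, 15.3, 16.3, 18.0, 18.2 and 15.5 CPM, with a slope of 0.11 ± 0.042 and an adjusted p of 0.172 by edgeR. Ndufa1, a membrane-arm subunit, stood at 18.7 CPM in culture 5 and 23.6 to 26.3 CPM in the other 5. With no filter on low counts, Ndufa4l2 was tested too and passed with a slope of 1.24 (edgeR adjusted p = 0.0239), the 1 call among the members under any setting with all cultures. Also without the filter, the call was lost without culture 1 (slope 1.10, edgeR adjusted p = 0.0869) and without culture 5 (slope 0.84, edgeR adjusted p = 0.646). It passed without each of cultures 2, 3, 4 and 6, with slopes of 1.18 to 1.41.

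By complex, slopes were negative for 4 of 4 tested genes of complex II, 7 of 9 of complex III, 8 of 13 of complex IV, 23 of 47 of complex I and 7 of 17 of complex V. For comparison, slopes were positive for 45.6% of the tested members and 48.1% of all tested genes. No member slope passed the test, and the median slope over all members was -0.01, as over all tested genes (-0.00). The culture with the highest marker sums for fibroblasts was the lowest of the 6 for 28 of 90 members (31.1%), against 28.0% of all tested genes. It was the highest for 9 members (10.0%), against 27.5% of all tested genes.

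Other genes of oxidative metabolism, from lists chosen with earlier results of these data known, were set beside the members in the same fits. Over all tested genes, 76.3% varied beyond counting noise, and 5.05% had higher and 1.2% lower slopes on the fibroblast score. Of 37 tested assembly factors of the chain outside the rule, 13 varied beyond counting noise and 0 had a slope that passed, with a median CV of 8.41%. The highest of them per kilobase were Uqcc2 (55.4 ± 2.28 CPM), which acts in cytochrome b assembly, and Coa3 (41.5 ± 1.71 CPM), which acts on complex IV. Of 19 electron carrier and coenzyme Q genes, 12 varied beyond noise and 0 slopes passed. Cycs, somatic cytochrome c, stood at 37.5 ± 3.13 CPM, and Cyct, its testis form, had at most 4 counts. Of 17 tricarboxylic acid cycle genes, 12 varied beyond noise and 0 slopes passed, with a median CV of 5.34%. Cs, citrate synthase, stood at 287.5 ± 3.55 CPM.

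Among 15 regulators of mitochondrial biogenesis, 11 (73.3%) varied beyond noise, near the 76.3% of all tested genes, and 1 had a slope that passed. This was Ppargc1a, the coactivator PGC-1alpha, which fell with the fibroblast score by 0.34 ± 0.076 (SE) log2 units per unit (edgeR adjusted p = 0.0489). It stood at 14.1, 8.11, 9.05, 8.12, 6.41 and 8.46 CPM in cultures 1 to 6. Culture 1 was the highest, and the call was lost without any 1 of the 6 cultures. Without culture 1 the slope was -0.20 (edgeR adjusted p = 0.256) and without culture 5 it was -0.36 (edgeR adjusted p = 0.305). Without cultures 2, 3, 4 or 6 it lay between -0.33 and -0.36. Nrf1, the factor behind the motif above, stood at 28.5 ± 1.01 CPM and did not pass (edgeR adjusted p = 0.878).

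Glycolysis genes varied more in the same libraries. Of 17, all 17 varied beyond counting noise, 6 had higher and 1 lower slopes on the fibroblast score, and the median CV was 15.4%. Hk2, hexokinase 2, rose with the score by 0.84 ± 0.10 (SE) log2 units per unit (edgeR adjusted p = 0.00442), from 6.14 CPM in culture 1 to 31.3 CPM in culture 5. Without culture 5, 0 of the 17 passed: Hk2 had a slope of 0.75 (edgeR adjusted p = 0.144) and Ldha, lactate dehydrogenase A, of 0.36 against 0.38 with all cultures. Of 78 tested cytosolic ribosomal protein genes, 77 varied beyond noise and 4 had higher slopes, with a median CV of 10.8%. Whether the members differ from these lists was not tested.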

How the data were processed

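Poly-A RNA from 6 cultures was sequenced from stranded libraries made from 500 ng of total RNA (RNA integrity number at least 8.7) with 15 PCR cycles, per the labels' protocols. The table deposited by the authors gives estimated counts per gene, unscaled and in part fractional, and a combined exon length in bases. The submitters' processing notes name bcl2fastq 2.20.0.422, cutadapt 2.5, STAR 2.7.2b, featureCounts 1.6.4 of Subread and GRCm38.p6; their settings for strand and for reads matching several places are not given in the sources used here. The 6 count columns carry the samples' own descriptions, and the coordinates of all 97 members were identical to RefSeq on GRCm38.p6.

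CPM was the count of a gene scaled to the library total in the usual way. For levels between genes it was divided by exon length in kilobases. Rounded counts went into edgeR 4.0.16 and, as an alternative, DESeq2 1.42.0, both in R 4.3.3. The filterByExpr function kept 14998 genes, library sizes were scaled with TMM, and p-values were adjusted over all genes kept at a threshold of 0.05. Where a gene's libraries all held at most 3 counts, a fold was computed against 3 counts per library. On simulated counts for 14998 genes, of which 200 were changed, each of the 3 tests was checked before use. That simulation used a spread that varied less between genes than the real one.

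Genes described in full were, by rule, the highest and lowest main subunit of each complex, all isoform pairs, members not detected, those nearest the threshold of each test, and the 10 most and 5 least variable members of at least 10 CPM. Members and gene lists were chosen with earlier results of these data known. Copies and principal transcript lengths come from GENCODE M21, of which 94 members had a principal transcript (the upper middle length where a gene had several), and promoters from RefSeq. Alternatives were another scaling, no filter on low counts, whole counts only, other pseudocounts, a median over subunits, mural markers in place of fibroblast markers, DESeq2, and leaving out each culture. Principal transcript lengths, the inclusion of widely expressed isoforms the class of genes of at least 50 CPM and dropping the low-count filter while leaving out a culture were chosen after seeing the data. Single values of 1 complex I gene are left out of the text; sums and tests include it.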

Additional observations from a re-analysis of the deposited data

Results flagged for a closer look

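Checked were 106 measures: the CPM of members, sums and shares. The members included Ndufa4l2, which the low-count filter left out of the tests. In 12 of the 106 measures, 1 culture lay apart from the other 5 by more than Dixon's 95% limit for 6 values. Chance flags about 1 in 20 such groups, here 5.3 of 106. The share of all genes flagged by this rule is not given, so the excess is no result about the members. The members' share of all counts was highest in culture 4, at 0.570%, against 0.551% to 0.556%. Culture 1 was the highest for Ndufs1 (99.7 CPM), Sdhb (100.2 CPM) and Uqcrc2 (121 CPM) and the lowest for Ndufaf2 (6.01 CPM). Culture 5 was the highest for Ndufa4l2 (4.87 CPM) and the lowest for Ndufb2 (12.9 CPM) and Ndufa1 (18.7 CPM). Culture 3 was the lowest for Ndufc1 (14.7 CPM) and the highest for Ndufa5 (20.1 CPM). Culture 4 was the highest for Ndufv2 (73.3 CPM) and culture 6 for Ndufb4 (14.4 CPM), whose counts are shared with copies.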

How the results depend on the processing

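No paired analysis was possible because all cultures belong to 1 group. Of 209 values under alternatives, 172 kept their direction, their side of the threshold or their value within the spread. Many of these could hardly change, so the tally is no measure of robustness. A mean over the cultures moves little when 1 culture is left out, and the abundance-trend test called no gene in any setting. Depth limits the 4 isoform genes with at most 3 counts in every library, and length limits every comparison of levels between genes. With whole counts only, 19 members varied beyond counting noise, of 29 tested. Leaving out a culture gave 47 to 54. With no low-count filter, 1 member (Ndufa4l2) had a higher slope, and leaving out a culture as well gave 0 to 1. A pseudocount of 1 gave 5.13 for complex I, and -7.47 for Cox4i2/Cox4i1, -7.11 for Cox6a2/Cox6a1, -4.12 for Cox7a1/Cox7a2, -5.88 for Cox7b2/Cox7b and -6.85 for Cox8b/Cox8a. The median over subunits gave 5.21 for complex I, 5.90 for III, 6.10 for IV and 6.25 for V. Subunits with whole counts only gave 5.33 for complex I, 6.31 for II, 5.70 for III and 6.19 for V. Isoforms included, with the Ndufb4 copies left out, gave 5.15 for I, 6.57 for IV and 6.30 for V. Principal transcript length gave 5.85 for II, 5.80 for III and 6.52 for V, -4.49 for Cox6b2/Cox6b1, -5.87 for Cox7a1/Cox7a2, -3.96 for Atp5g1/Atp5g3 and -1.76 for Atp5g2/Atp5g3, and it reversed Cox7a2l/Cox7a2 to -0.52. No length scaling gave -8.995 for Cox6a2/Cox6a1, -6.51 for Cox7a1/Cox7a2, 0.19 for Cox7a2l/Cox7a2, -9.28 for Cox8b/Cox8a, -1.28 for Atp5g1/Atp5g3 and -1.74 for Atp5g2/Atp5g3. The shifts follow from the lengths, pseudocounts or genes used in each.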

Other observations

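The carriers that move ATP, phosphate and metabolites across the mitochondrial membranes were among the higher genes of the same libraries. Slc25a4 and Slc25a5, which exchange ADP for ATP, stood at 192 ± 13.5 and 166 ± 19.5 CPM (SD, n = 6), and Slc25a3, the phosphate carrier, at 247 ± 14.5 CPM. The testis form Slc25a31 had at most 4 counts. Of 8 tested genes of this list, 7 (87.5%) varied beyond counting noise, against 76.3% of all tested genes. In this list 0 had a slope on the fibroblast score that passed. Ucp2, an uncoupling protein family gene also expressed by macrophages, had the largest SD of these 8, 45.6 CPM. It stood at 125, 169, 229, 217, 173 and 247 CPM in cultures 1 to 6. Relative to its mean, the low gene Ckmt1 of the same list varied more, at 1.36 ± 0.515 CPM. Ucp1, the brown fat uncoupling protein, had at most 4 counts and Ucp3 at most 3.

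The deposited exon length was over 1.5 times the principal transcript for 12 of 94 members. Beside Ndufaf5 and Ndufa11 these included Ndufaf6, Ndufb8 and Ndufa7 of complex I, Cox5a and Cox7a2 of complex IV, and Atp5g3, Atp5h, Atp5j and Atp5c1 of complex V. For Cox5a, the lowest complex IV subunit by deposited length at 34.1 CPM per kilobase, the transcript length gave 79.3 CPM per kilobase. In the other direction, the principal transcript was over 1.5 times the deposited exon length for 9 members. Among these were Ndufb2, Ndufc1, Sdhc, Atp5g1 and Atp5j2.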
